A study of Caenorhabditis elegans with 2 samples.

Results

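Distal BLMP-1 peaks are the peaks of the authors' IDR (irreproducible discovery rate) list that lie far from the start of every protein-coding gene. A peak was counted as distal when its summit lay more than 2000 bp from the nearest start of a protein-coding gene on the nuclear chromosomes of build ce11 (WBcel235). Of 843 peaks in the list, 818 were on nuclear chromosomes, and 279 of these were distal. Of the 279 summits, 148 lay between protein-coding genes (intergenic), 122 lay in introns of 102 host genes, and 9 lay in exons. The 539 other nuclear peaks are called proximal here. The data are ChIP-seq of eGFP-tagged BLMP-1 from whole Caenorhabditis elegans of strain OP109, genotype unc-119(ed3) III; wgIs109, collected as mixed-stage embryos of pooled males and females. There was 1 group of 2 biological replicates, and the IDR list is the authors' list for both pooled. No candidate of replicate 2 overlapped 8 of the distal peaks. Both replicates carry the same unc-119 allele and the same insertion, neither the age of the embryos nor the promoter of the tagged gene is given, and whole embryos do not show which cells a peak comes from.

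The zinc finger protein BLMP-1, the worm homologue of vertebrate PRDM1 (Blimp-1), is a transcription factor that binds DNA that holds the core AAGTGAAA. In worms it is known for work in the epidermis, in the timing of larval development with genes such as lin-29 and dre-1, and in the migration of the distal tip cells through the netrin receptor gene unc-5. Regulatory elements of C. elegans mostly lie close to gene starts, while long introns and long intergenic gaps can hold enhancers that act from farther away.

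The windows that follow show what the strongest distal summits look like as sequence. Each is the forward strand of build ce11 with 50 bases on either side of the summit (RefSeq genome of WBcel235), in lower case. Capitals mark the core, which reads AAGTGAAA or, when it lies on the reverse strand, TTTCACTT, and the repeat GAGAGA or its reverse complement TCTCTC. The first 6 windows are intergenic summits that carried the core, in order of signal, near bcl-11 (chrV:6352511-6352611), zyx-1 (chrII:13053625-13053725) and agmo-1 (chrIII:12800704-12800804), in the gap between gei-13 and C15H7.3 (chrIII:9646519-9646619), and near fos-1 (chrV:6000450-6000550) and ets-4 (chrX:6515414-6515514). The stronger summit with the core near Y48G8AR.8 is not shown.
bcl-11, intergenic: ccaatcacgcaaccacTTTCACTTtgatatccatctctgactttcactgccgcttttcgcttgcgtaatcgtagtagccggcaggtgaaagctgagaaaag
zyx-1, intergenic: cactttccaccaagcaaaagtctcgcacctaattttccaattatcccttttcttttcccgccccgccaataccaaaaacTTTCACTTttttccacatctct
agmo-1, intergenic: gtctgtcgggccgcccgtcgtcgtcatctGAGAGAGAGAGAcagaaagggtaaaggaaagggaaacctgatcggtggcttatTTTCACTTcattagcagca
gei-13 and C15H7.3, intergenic: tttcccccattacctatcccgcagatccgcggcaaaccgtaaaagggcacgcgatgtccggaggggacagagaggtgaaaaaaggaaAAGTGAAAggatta
fos-1, intergenic: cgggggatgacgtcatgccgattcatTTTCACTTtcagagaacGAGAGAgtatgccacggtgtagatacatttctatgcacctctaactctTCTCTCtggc
ets-4, intergenic: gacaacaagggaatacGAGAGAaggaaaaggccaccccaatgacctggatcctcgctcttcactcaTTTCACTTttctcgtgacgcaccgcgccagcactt

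Intronic summits with the core held the same 8 letters, and the windows in ztf-16 (chrX:4809375-4809475), ccch-1 (chrV:11533100-11533200) and kin-20 (chrX:15274951-15275051 and chrX:15275412-15275512) are given to set beside the intergenic ones. In the ztf-16 intron and at the second kin-20 summit the centre of the core lay 1.5 bp from the summit, in the ccch-1 intron 13.5 bp, and at the first kin-20 summit 42.5 bp.
ztf-16, intron: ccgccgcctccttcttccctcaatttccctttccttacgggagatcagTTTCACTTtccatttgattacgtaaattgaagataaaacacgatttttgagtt
ccch-1, intron: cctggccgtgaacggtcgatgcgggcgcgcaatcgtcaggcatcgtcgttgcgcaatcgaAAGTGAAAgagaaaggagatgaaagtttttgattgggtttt
kin-20, intron, first summit: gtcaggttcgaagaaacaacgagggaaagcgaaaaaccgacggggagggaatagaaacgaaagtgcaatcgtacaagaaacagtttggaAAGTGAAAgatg
kin-20, intron, second summit: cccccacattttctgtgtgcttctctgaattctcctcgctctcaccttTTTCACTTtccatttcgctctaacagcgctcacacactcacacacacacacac

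Windows without the core are shown because they include the strongest distal summit of all. GAGAGA stood at the summits in spsb-1 (chrII:15218111-15218211) and in the gap between K01H12.4 and nhr-138 (chrIV:9716597-9716697), labelled nhr-138 below. The latter summit lay 3565 bp downstream of the start of K01H12.4 and 8604 bp upstream of that of nhr-138. Neither the core nor GAGAGA stood within 50 bp of the summits near atf-2 (chrII:8749292-8749392), in B0353.1 (chrIII:568996-569096) or at another summit near bcl-11 (chrV:6351239-6351339).
spsb-1, intron, GAGAGA: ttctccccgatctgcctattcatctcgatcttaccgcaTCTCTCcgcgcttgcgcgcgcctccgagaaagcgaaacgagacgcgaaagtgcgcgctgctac
nhr-138, intergenic, GAGAGA: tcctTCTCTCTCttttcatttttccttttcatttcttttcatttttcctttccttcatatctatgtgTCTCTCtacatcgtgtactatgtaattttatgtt
atf-2, intergenic, neither: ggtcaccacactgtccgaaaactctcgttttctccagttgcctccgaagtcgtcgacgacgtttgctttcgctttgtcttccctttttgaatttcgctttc
B0353.1, intron, neither: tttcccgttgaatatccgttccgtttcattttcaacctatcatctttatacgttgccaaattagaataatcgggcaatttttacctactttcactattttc
bcl-11, intergenic, neither: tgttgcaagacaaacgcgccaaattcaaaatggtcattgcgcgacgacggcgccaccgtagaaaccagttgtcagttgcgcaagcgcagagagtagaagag

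The 3 strongest distal peaks lay between genes, 2 of them upstream of transcription factor genes. The highest, at II 8749342, lay 2644 bp upstream of atf-2, a bZIP transcription factor gene, in the gap to mak-1, a kinase gene. Its signal, the authors' score of unknown scale, was 539.9 in the pooled list, where it ranked 7, and it ranked 6 in replicate 1 and 5 in replicate 2. The peak at V 6352561, 3464 bp upstream of the zinc finger gene bcl-11, had a signal of 340.5 and ranked 16 and 23 in replicates 1 and 2. Near it in the same gap, between bcl-11 and T28C12.6, were summits at V 6351289 (signal 221.2, ranks 45 and 35) and V 6353649 (95.69, ranks 196 and 162). All of these ranked 196 or better in both replicates, and the core was at 1 of the 3 summits near bcl-11 and not at the atf-2 summit. Another strong summit lay at I 1273939, 2423 bp downstream of the start of Y48G8AR.8, with a signal of 374.4 and both the core and GAGAGA.

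Further intergenic peaks stood upstream of genes of several kinds. The one at II 13053675 lay 3235 bp upstream of zyx-1, which encodes the muscle attachment protein zyxin (signal 232.2, ranks 39 and 34). The one at III 12800754 lay 2185 bp upstream of agmo-1, an alkylglycerol monooxygenase gene, with both the core and GAGAGA (222.9, ranks 35 and 44). At V 6000500 a summit 3101 bp upstream of fos-1, the worm Fos gene, also held both sequences (173.7, ranks 60 and 49). These 3 peaks thus held the core and stood within the strongest 60 regions of each replicate. A summit at I 5883879, 2734 bp upstream of the transporter gene pgp-2, lay in the gap to noah-1, which encodes an apical matrix protein of the embryonic epidermis (174.6, ranks 95 and 37), and had GAGAGA but no core. At III 7495185, in the gap between mup-4, a gene of the epidermal attachment structures, and the RNA helicase gene cgh-1, the peak of signal 167.0 (ranks 58 and 85) had neither. The peak at X 13003322 lay 5171 bp upstream of nhr-25, a nuclear receptor gene of epidermal development and molting, and had neither sequence (129.8, ranks 128 and 96).

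Among intronic peaks the highest signal was 299.4, in an intron of the zinc finger gene ztf-16 at X 4809425 (ranks 25 and 18). The peak in the first intron of B0353.1, at III 569046, had a signal of 282.9 (ranks 24 and 31). Here and below, a first intron is the most 5′ intron of any transcript of its gene. In the first intron of nab-1, which encodes the synaptic scaffold neurabin, the peak at I 4233009 had 244.5 (ranks 56 and 16). In the first intron of ccch-1, a CCCH zinc finger gene, the peak at V 11533150 had 222.7 (ranks 49 and 33). These 4 ranked 56 or better in both replicates. Others lay in let-526, a gene of the SWI/SNF chromatin complex (207.8), in spsb-1 (197.0), in let-383 (169.4), and in lit-1, the Nemo-like kinase gene of Wnt signalling (162.1). The first intron of kin-20, the casein kinase gene related to the fly clock gene doubletime, held 3 summits with signals of 151.7, 126.4 and 51.13.

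**Figure D1:**
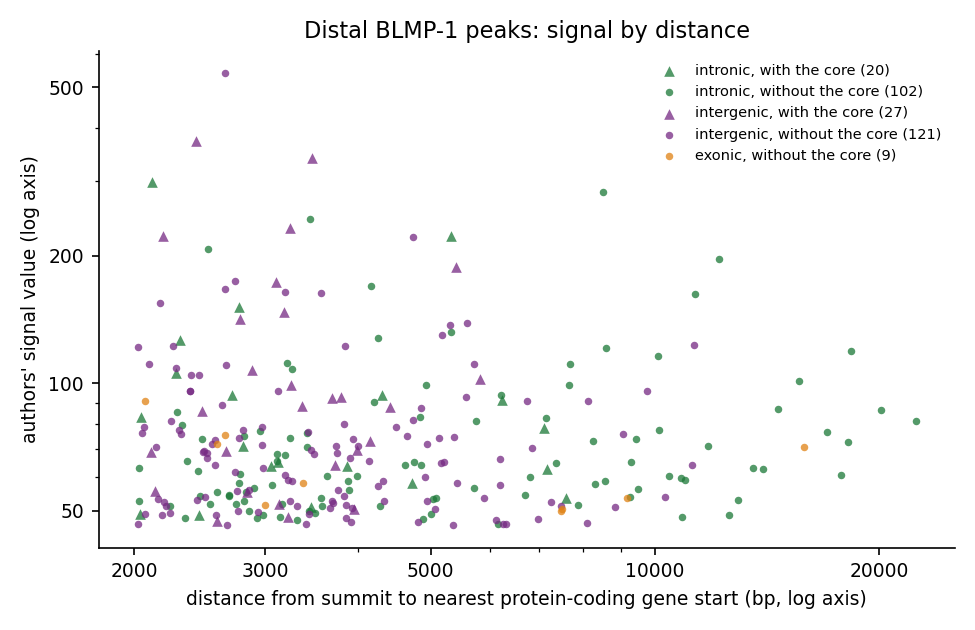
Signal value of each of the 279 distal peaks (y axis, the authors' score, log axis) against the distance from its summit to the nearest protein-coding gene start (x axis, bp, log axis), with colour for the class and triangles for peaks that hold the core. The highest point is the peak near atf-2 at 2644 bp, and no triangle lies beyond 10000 bp.

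Several genes gathered more than 1 distal summit. The glutamine-rich gene pqn-41 had the most, 5 summits in a first intron of 10372 bp, with signals from 60.76 to 119.4 and GAGAGA at 1 of them. Next was egl-27, a gene of the MTA family of chromatin proteins, with 3 summits in its gap to the synaptotagmin gene snt-1 and 1 in an intron, the highest at 111.2. The SoxC gene sem-2 had 3 intronic summits with signals of 99.14, 58.03 and 54.35. Of the 279 distal peaks, 59 (21.15%) had another nuclear summit of the list within 2000 bp, against 63 of 539 proximal peaks (11.69%). Neighbouring summits are not independent of each other, so these shares were not tested. The tests that follow share this limit, since they count each summit apart except where 1 summit a host gene is named.

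Signals of distal peaks ranged from 46.15 to 539.9 with a median of 65.57, and those of proximal peaks had a median of 63.93. The median was 69.07 over intergenic and 63.81 over intronic distal peaks. Distal peaks lay above the median of all nuclear peaks in 52.69% of cases and proximal peaks in 48.61%, a difference that did not pass (odds ratio 1.18, 95% interval 0.882 to 1.57, exact p = 0.302 by Fisher's test, two-sided here and throughout). The median distance to a start was 3631 bp and the longest was 22419 bp, in vab-10, the spectraplakin gene of the epidermis. At the boundary of 2000 bp, the nearest members inside lay at 2020 bp (csnk-1, signal 46.43), 2022 bp (nhr-34, 121.5) and 2029 bp (C14H10.2, 52.76), and the nearest proximal peaks at 1996 bp (nhr-3, 88.67), 1991 bp (F09E10.6, 67.5) and 1974 bp (C45B2.6, 48.39).

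BLMP-1 peaks were less often distal than the weaker candidate regions of the same experiment, and distal peaks favoured intergenic sequence over exons. The background for this and the other comparisons is the pooled candidate list, of which 12673 nuclear regions were distal. Of these, 303 (2.39%) overlapped a peak of the IDR list, and several candidates can overlap the same peak. The other 12370 form the distal background. In the pooled list the IDR peaks are those with the highest signal, so each contrast with the background sets stronger against weaker pooled signal. Peaks and regions are not replicates, and the intervals cover counting error only. Of the 818 nuclear peaks 34.11% were distal, against 42.52% of the 29091 other nuclear candidates (odds ratio 0.700, 0.605 to 0.811). Distance is what chose the distal peaks, so this contrast is given as a description. By length, 42.66% of the nuclear genome lies more than 2000 bp from a start. Intergenic summits made up 53.05% of the distal peaks and 41.23% of the background (odds ratio 1.61, 1.27 to 2.04, adjusted p = 1.53e-04, Fisher's exact test over 3 classes). Exons held 3.23% against 13.66% (0.211, 0.116 to 0.425, adjusted exact p = 2.17e-08), and the odds ratio was 0.325 without replicate 2, in the strongest regions of replicate 1 alone. For introns the shares were 43.73% and 45.11%, and no difference was detected (0.946, 0.745 to 1.20, adjusted exact p = 0.671). Beyond 5000 bp, where 87 peaks remained, neither the intergenic share (odds ratio 1.04) nor the exon share (0.464) passed.

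The core AAGTGAAA was far more frequent at distal peaks than in the distal background, both in introns and between genes. It lay wholly within 50 bp of the summit at 20 of 122 intronic peaks, 16.39% (10.31 to 24.18, Clopper-Pearson), against 1.81% of the intronic background. At intergenic peaks it was at 27 of 148, 18.24% (12.38 to 25.42), against 1.92%. The odds ratios were 10.6 (6.46 to 18.04, adjusted exact p = 1.48e-12, Benjamini-Hochberg over 6 sequences) and 11.4 (7.26 to 18.2, adjusted exact p = 7.24e-17). Without replicate 2 the intronic value was 6.84. None of the 9 exonic peaks held the core, and all distal peaks together gave 47 of 279 against 1.8% (odds ratio 11.04, 7.91 to 15.6, adjusted exact p = 1.30e-28). No difference between intronic and intergenic peaks was detected (odds ratio 0.879, 0.471 to 1.66, adjusted exact p = 0.936), nor between distal peaks and the proximal ones, of which 14.84% had the core (1.16, 0.788 to 1.73, adjusted exact p = 0.936). These intervals still allow differences of more than 1.5 times in odds. The median signal was 85.79 over distal peaks with the core and 64.47 over those without.

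Core sites stood close to the summit in both classes. Within 25 bp of the summit there were 2.62 core sites per kb at intronic peaks and 2.16 at intergenic peaks, against 0.199 in the distal background. From 100 to 150 bp away the values were 0.0820, 0.270 and 0.157 per kb. By rank among all distal candidates, the core was at 30% of the 50 strongest (17.86 to 44.61), 22% of the next 50, 13% of the 100 after those, 6.5% of ranks 201 to 400 and 1.53% of ranks 6401 to 12673.

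The repeat GAGAGA was the more common sequence at distal peaks of both classes. It stood at 35 intronic peaks, 28.69% (20.86 to 37.58), against 6% of the intronic background, and at 49 intergenic peaks, 33.11% (25.6 to 41.31), against 7.41%. The odds ratios were 6.30 (4.23 to 9.51, adjusted exact p = 8.64e-14) and 6.18 (4.35 to 8.87, adjusted exact p = 4.93e-18). Over all distal peaks it was at 86 of 279 against 6.6%. Proximal peaks had it at 30.43%, close to the distal 30.82% (odds ratio 1.02, 0.746 to 1.40, adjusted exact p = 0.936). Of the 279 distal peaks, 47 held the core, 86 held GAGAGA and 156 (55.91%) held neither. Both sequences stood at 10, among them those near agmo-1, fos-1 and ets-4. Whether this overlap differs from what the separate shares would give was not tested. Among ranks 51 to 100 the repeat was at 36% of distal candidates and among ranks 201 to 400 at 23.5%, against 5.84% of ranks 6401 to 12673. GAGAGA sites were spread more widely around the summit than core sites. Within 25 bp there were 9.51 per kb at intronic peaks and 7.03 at intergenic peaks, against 1.465 in the distal background. From 100 to 150 bp away the values were 6.80, 3.92 and 1.04, and from 150 to 250 bp 3.975, 4.05 and 1.02. The median G+C content of the windows was 42.57% at distal peaks and 31.68% in the background. Compared within strata of 5 percentage points of G+C content, the odds ratio of GAGAGA was 2.87 in introns, 2.52 between genes and 3.20 over all distal peaks, against 6.30 over all without strata, and that of the core over all was 11.6.

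**Figure D2:**
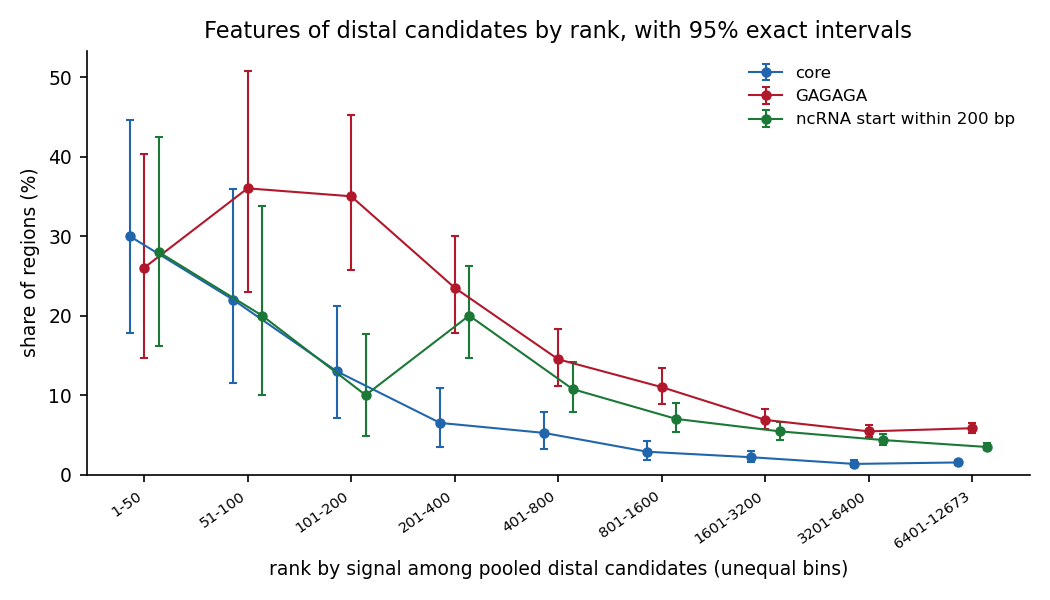
Share of distal candidate regions (y axis, percent) that hold the core or GAGAGA within 50 bp of the summit or lie within 200 bp of an ncRNA gene start, by rank of signal in the pooled list (x axis, bins of unequal size), with 95% Clopper-Pearson intervals. The core falls from 30% in the 50 strongest to 1.53% in the weakest bin, while GAGAGA is highest, at 36% and 35%, in ranks 51 to 200.

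The other 4 words searched gave little. The Sp1 word GGGCGG was at 12 distal peaks, 4.30% against 1.9% (odds ratio 2.32, 1.35 to 4.31, adjusted exact p = 0.0252), but within G+C strata the odds ratio was 1.04 (0.569 to 1.90). The word GATA with the flanking bases of the GATA factor motif was at 71 peaks, 25.45% against 20.5% (1.32, 1.01 to 1.75, adjusted exact p = 0.0769). Within G+C strata it passed, at 1.55 (1.17 to 2.05). The E-box CAGCTG was at 6 peaks, 2.15% against 1.38% (adjusted exact p = 0.292). The AP-1 motif was at 0 of 279 peaks, which allows a share of up to 1.31%, against 0.744% (adjusted exact p = 0.292).

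The core was listed by distance after its values were seen, and since distance is what chose the peaks these shares are a description. It was at 19 of 97 peaks between 2000 and 3000 bp, at 21 of 95 up to 5000 bp, at 7 of 62 up to 10000 bp and at 0 of 25 farther away, where a share of up to 13.72% is allowed. Beyond 5000 bp it was at 8.05% of 87 peaks and at 20.83% of the 192 nearer ones. In the background the shares over these 4 bins were 1.68%, 1.835%, 1.962% and 1.62%. GAGAGA was at 29.9%, 32.63%, 30.65% and 28% in the 4 bins. In odds, the ratio of farther to nearer peaks for the core was 0.333 in the list, but 0.527 without replicate 1 and 0.507 without replicate 2. These ratios are a description as well. The farthest peaks were mostly intronic, 21 of 25, and they included those in vab-10, afd-1, the afadin gene of cell junctions (20147 bp, signal 86.25), pqn-41, lit-1 and unc-5.

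**Figure D3:**
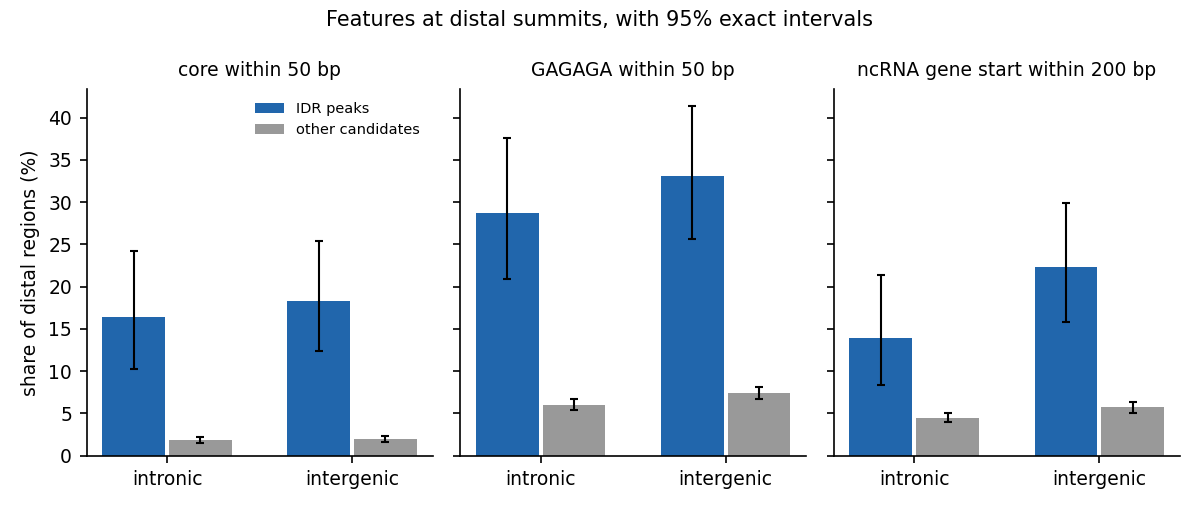
Share of distal regions (y axis, percent) with the core, with GAGAGA and with an ncRNA gene start nearby, for intronic and intergenic IDR peaks (blue) and for the other distal candidates (grey), with 95% Clopper-Pearson intervals. Each blue bar stands above its grey bar, at 16.39% against 1.81% for the core in introns.

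Intronic peaks sat in long introns. The host intron had a median of 5329.5 bp (quartiles 2828.5 and 8319.8 bp), against 1609 bp (736 and 5127.5 bp) in the intronic background. First introns were taken over every transcript of the host gene, so an intron that follows an inner transcript start can count as first. A first intron held 63 of the 122 summits, 51.64% (42.42 to 60.78), against 30.1% (odds ratio 2.48, 1.73 to 3.54, exact p = 1.22e-06). Summits that share an intron are counted separately there. With only the strongest summit of each host gene, in peaks and background, it was 48 of 102 against 22.89% (3.00, 2.01 to 4.46, exact p = 1.72e-07, added after the values were seen). First introns are long: their median was 7128 bp at peaks and 5658 bp in the background, against 3023 and 1078 bp for later introns. Within strata of host intron length the odds ratio was 1.18 (0.779 to 1.79, Mantel-Haenszel, added after the values were seen), so the preference for first introns could not be told apart from one for long introns. Many genes have more than 1 annotated start, and 217 of the 279 distal peaks also lay more than 2000 bp from every start of a coding transcript. These included all 148 intergenic peaks but only 65 of the 122 intronic ones. The summits in nab-1 (519 bp), ccch-1 (537 bp), lit-1 (969 bp) and B0353.1 (1476 bp) and the strongest in kin-20 (1212 bp) lay nearer to such a start. Those in ztf-16 (2111 bp), let-526 (2100 bp) and let-383 (2218 bp) lay farther than 2000 bp. Starts of inner transcripts lay within 500 bp of 12 intronic summits, 9.84% against 11.3% (0.854, 0.490 to 1.60, adjusted exact p = 0.772, added after the values were seen). Among the 12 are the summits in spsb-1, 392 bp from such a start, and ldb-1, 401 bp.

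**Figure D4:**
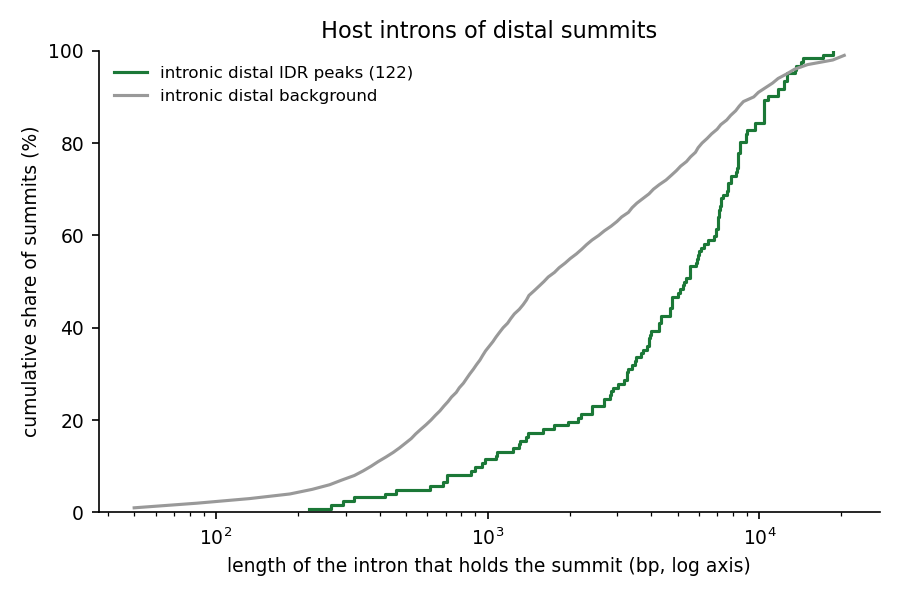
Cumulative share of intronic distal summits (y axis, percent) by the length of the intron that holds them (x axis, bp, log axis) for the 122 IDR peaks (green steps) and for the intronic distal background (grey line, by percentile). The green line runs to the right of the grey one over most of the range, with medians of 5329.5 and 1609 bp.

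In intergenic gaps, distal peaks were seldom placed between 2 gene ends. The gap lay between convergent genes, which have no start in it, for 9 of 148 peaks, 6.08% against 13.53% of the intergenic background (odds ratio 0.414, 0.224 to 0.843, exact p = 0.00655, added after the values were seen). Tandem genes flanked 95 peaks (64.19% against 54.29%) and divergent genes 44 (29.73% against 32.04%). The summit lay upstream of the nearest start in 105 cases, 70.95% against 68.67% of the intergenic background. The call for convergent gaps was lost when distal meant beyond 3000 bp (0.444, exact p = 0.0602).

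Short noncoding RNA genes lay beside many distal summits. Genes of the annotation's class ncRNA, which number 7764 and have a median length of 140 bp, had a start within 200 bp of 51 distal peaks, 18.28% (13.92 to 23.32), against 4.54% of the background (odds ratio 4.71, 3.46 to 6.49, adjusted exact p = 4.99e-16, added after the values were seen). Between genes this held for 33 peaks, 22.3% against 5.71% (4.74, 3.20 to 7.16, adjusted exact p = 9.95e-11). In introns it held for 17 peaks, 13.93% against 4.46% (3.47, 2.10 to 5.97, adjusted exact p = 5.41e-05), and within G+C strata that call was lost (1.51, 0.876 to 2.59), while the intergenic one held at 2.20 (1.45 to 3.35). Without replicate 1 the odds ratio was 3.13 over all distal peaks and 2.60 between genes. Proximal peaks had such a start at 14.66% against 3.96% of the proximal background, and no difference between distal and proximal peaks was detected (1.30, 0.889 to 1.92, exact p = 0.190).

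The 51 peaks lay beside 51 different ncRNA genes of 49 to 349 bp. Examples are K08F8.13, whose start lay 57 bp from the atf-2 summit, F13H6.20 at 77 bp and F13H6.25 at 16 bp from summits near bcl-11, R08E3.7 at 61 bp from the ztf-16 summit, C10F3.15 at 8 bp from the fos-1 summit and F46F2.12 at 28 bp from a kin-20 summit. Summits lay upstream of the ncRNA start at 19 and downstream of it at 32. The core was at 13 of the 51 (25.49%) and at 34 of the other 228 (14.91%), GAGAGA at 23.53% and 32.46%, and the median signals were 70.68 and 65.41. Genes of piRNAs, germline small RNAs, went the other way, with a start within 200 bp of 3 distal peaks, 1.08% against 6.93% (0.146, 0.0591 to 0.489, adjusted exact p = 1.59e-05, added after the values were seen). The odds ratio was 0.249 without replicate 1 and 0.274 without replicate 2. It was not computed within G+C strata, which took that of ncRNA starts over all distal peaks from 4.71 to 2.47. Nor was it computed within chromosomes, although chromosome IV held 16.13% of distal peaks and 20.8% of the distal background. In all, 96 of the 279 distal peaks lay more than 2000 bp from the starts of every coding transcript and every noncoding gene.

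Intergenic distal peaks were among the strongest regions of both replicates more often than intronic ones. A region counted as a top region of a replicate when it was among that replicate's 843 strongest candidates. Of the 279 distal peaks 219 overlapped a top region of replicate 1, 186 one of replicate 2, 144 (51.61%) both and 18 neither. Proximal peaks did so in both at 48.61% (odds ratio 1.13, 0.845 to 1.51, exact p = 0.418). Intergenic peaks were at the top of both in 88 of 148 cases, 59.46%, and intronic peaks in 54 of 122, 44.26% (0.541, 0.336 to 0.882, exact p = 0.0145, added after the values were seen). With 421 top regions a replicate in place of 843 this difference did not pass (0.787, exact p = 0.408), nor when the overlap had to reach 50% of both regions (0.674, exact p = 0.138). Distal peaks with the core were at the top of both in 30 of 47 cases (63.83%) and those without it in 114 of 232 (49.14%). For the 271 distal peaks that both replicates' lists cover, the 2 signals had a Spearman's rho of 0.335, a description across peaks.

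**Figure D5:**
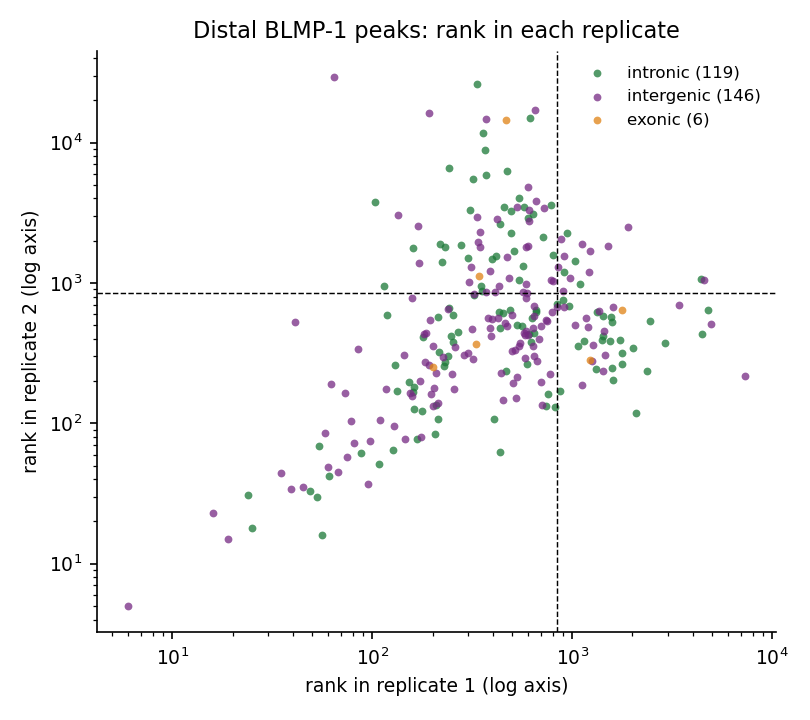
Rank of each distal peak among the candidates of replicate 1 (x axis) and replicate 2 (y axis), on log axes, for the 271 peaks with a candidate in both, with dashed lines at rank 843. The strongest peaks lie near the diagonal, and 144 peaks lie to the lower left of both lines.

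Some distal peaks rested on replicate 1. No candidate of replicate 2 overlapped 8 of them, while each of the 279 had one in replicate 1. The 8 include all 3 summits at dpy-20, a gene used as a transformation marker (signals 76.9, 51.48 and 51.26), and the exonic summit in lin-15B (75.53). Others lay near the homeobox gene unc-4 (77.63), in unc-62 (49.78), in let-607 (49.08) and near mapk-15 (46.41). The summit in lin-15A ranked 465 in replicate 1 and 14428 in replicate 2, and the one near nlp-18 ranked 64 and 29243. In the other direction the summit near cutl-22 ranked 7315 in replicate 1 and 216 in replicate 2. Of the 9 exonic distal peaks, those in dpy-20, lin-15A, lin-15B and unc-62 are among these. With only the 271 peaks that had a candidate in both replicates, the odds ratio of exons was 0.143 and that of the core 11.1. The members dpy-20, lin-15A, lin-15B, let-607, mapk-15, nlp-18 and cutl-22 are named for their replicate ranks, after their values were seen.

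By gene list, the highest shares of genes with a distal peak were those of bZIP factors, heterochronic genes, epidermal junctions and BMP and TGF-beta signalling. For each list below the genes with a distal peak in an intron or exon or in the flanking gap are counted among those with any distal candidate, and over all protein-coding genes this count was 362 of 5782 (6.26%). Lists were chosen with earlier results of these data known, so the counts are descriptions with no test. A gene with more distal candidates has more chances to hold a peak, so shares of regions are given as well. Junction genes held 3.94% of distal peaks and 1.88% of background regions, and heterochronic genes 2.51% and 0.776%. For bZIP genes the shares were 1.79% and 0.4365%, and for BMP and TGF-beta genes 2.15% and 0.331%. Junction and cytoskeleton genes of the epidermis had 8 of 26, among them mup-4, vab-19, a Kank family gene (92.34), afd-1, and vab-10 (81.29). The ezrin gene erm-1 (79.94 and 71.0) and ajm-1, a gene of the apical junction (71.18 and 48.82), each had 2 summits. Heterochronic genes, which time larval development, had 4 of 13, with kin-20, lin-14 (92.94, with the core), daf-12, a nuclear receptor gene (83.39), and lin-42, the worm Period gene (53.52 with the core, and 48.17). Genes of bZIP factors had 5 of 13, with atf-2, fos-1, crh-1, the CREB gene (53.92), zip-7 (51.25) and skn-1 (48.88), and of these crh-1 was at the top of neither replicate.

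Genes of BMP and TGF-beta signalling had 5 of 17, at lower signal. They were sma-9, the Schnurri gene (78.56), the ligand gene tig-3 (74.86), the Smad gene daf-14 (62.96), the Ski-related gene daf-5 (56.48) and the receptor gene daf-4 (52.12), and none held the core. Apical matrix and molting genes had 6 of 51, led by noah-1, the metalloprotease gene nas-7 (141.6), mlt-11 (111.2) and cutl-18 (93.86), of which nas-7 and cutl-18 held the core. Epidermal transcription factor genes had 4 of 22, which were ztf-16, nhr-25, unc-62 and the Runx gene rnt-1 (47.85). By region, the epidermal factor list held 1.43% of distal peaks and 1.16% of the background, and the apical matrix list 2.51% and 1.10%. Lists of other transcription factors gave 5 of 42 for zinc finger genes, 5 of 41 for SOX, HMG, bHLH, T-box and Forkhead genes, 5 of 50 for homeobox genes and 8 of 95 for nuclear hormone receptor genes. The first of these was led by bcl-11, the second by sem-2 (99.14) and fkh-9 (87.96), the third by ceh-86 (92.34, the summit shared with vab-19) and the fourth by nhr-138 (163.5).

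The remaining lists gave these counts. The list of hedgehog-related and patched-related genes gave 4 of 37, led by ptc-3 (88.7) and wrt-9 (85.41). Axon guidance and cell migration genes had 5 of 41, with clr-1 (73.47), the plexin gene plx-1 (66.06), unc-5 (62.95) and mig-10 (62.6). By region, the axon guidance list held 1.79% of distal peaks and 1.835% of the background, and the hedgehog-related list 1.79% and 0.970%. Notch and EGF signalling had 2 of 17, both of them the lin-15 summits that rest on replicate 1. Wnt signalling had 1 of 18, lit-1, and muscle structure 1 of 22, zyx-1. Neuronal genes had 8 of 205 (3.90%), led by npr-24 (136.9), npr-15 (123.4) and ins-8 (121.5). Cuticle collagens had 0 of 30 and cytosolic ribosomal proteins 0 of 5. Of distal peaks and background regions, neuronal genes held 4.30% and 5.57%, and muscle structure genes 0.358% and 0.768%. These shares were 0.717% and 0.477% for Notch and EGF signalling and 1.075% and 0.574% for Wnt signalling. Collagens held 0% and 0.647%, and ribosomal protein genes 0% and 0.234%.

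Of the genes followed whatever their value, blmp-1, unc-119, lin-29, bed-3, dre-1, nhr-91, grh-1, nhr-23 and elt-3 had no distal peak, although each had weaker distal candidates, 13 of them at lin-29. The one intronic peak of unc-5, in its first intron at IV 5514770, ranked 1575 in replicate 1 and 246 in replicate 2. The X chromosome held 63 distal peaks, 22.58% against 20.4% of the background (odds ratio 1.14, 0.862 to 1.52, exact p = 0.368).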

How the data were processed

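Tagged BLMP-1 (eGFP) was profiled by ChIP-seq in 1 group of 2 biological replicates, per the labels, which name the antibody target as blmp-1. The deposited lists on build ce11 were used, namely the authors' IDR list, the pooled candidate list and the candidate list of each replicate. Strength is the authors' signal value, a score whose scale and normalization are not stated in the deposited lists, so it was not compared in size between lists. The deposited −log10 q column was not used. The summit offset in bp is an other value of the deposited lists. Peak caller, aligner and IDR threshold are not given in the sources used here. A possible control experiment and the lists on build ce10 were not analysed here. The read depth is unknown, and intervals and limits cover counting error only. Mitochondrial peaks were left out.

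Summits were placed on WBcel235 with the Ensembl release 115 annotation and the RefSeq genome, with 1-based positions. A summit was exonic in an exon of any coding transcript, intronic elsewhere inside a protein-coding gene, and otherwise intergenic. Members and gene lists were chosen with earlier results of these data known. The background is every pooled distal candidate that overlaps no IDR peak by at least 1 bp. Both strands were searched for each sequence, which had to lie wholly within 50 bp of the summit, and the search was tested on simulated data with planted sites. Named genes are those at the 25 distal peaks of highest signal, the 5 with the most summits, up to 4 members of each of 18 lists and 16 fixed genes. Any other gene was picked with its values in view, and those at the distance boundary or farther than 10000 bp, or with short distances to inner transcripts or ncRNA genes, as examples.

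Two-sided Fisher's exact tests compared shares, adjusted by Benjamini-Hochberg within each family of tests at a threshold of 0.05, in Python 3.11.15 with SciPy 1.17.1 and statsmodels 0.14.6. Intervals of shares are Clopper-Pearson at 95%, those of odds ratios are normal intervals on the log scale with 0.5 added to each count, and stratified odds ratios are Mantel-Haenszel with an asymptotic p over regions, which number more than 100 in each arm. No paired analysis was possible because the series has a single group.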

Additional observations from a re-analysis of the deposited data

How the results depend on the processing

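Of 406 recomputed values for 34 results, 339 kept their direction and their side of the threshold or, for numbers of peaks, stayed within 1.5 times of the reported number. The core and GAGAGA at all, at intronic and at intergenic distal peaks kept their calls under every alternative run, save the core at intergenic peaks beyond 5000 bp (3.20, adjusted exact p = 0.441). Read depth is unknown, 1 group allows no second condition, and no control was used, so regions that any ChIP experiment would bring up cannot be told apart from BLMP-1 sites. In what follows the values are odds ratios unless counts are named, and the cause of each change was not tested. The number of distal peaks was 431 beyond 1000 bp, 182 beyond 3000 bp, 87 beyond 5000 bp, 135 with gene starts of any kind (1 start a gene, coding or not) and 141 in the strongest 421 peaks. Intronic peaks numbered 50 beyond 5000 bp, 65 with transcript starts, 69 with gene starts of any kind and 53 in the strongest 421, and intergenic peaks 247, 90 and 33 beyond 1000, 3000 and 5000 bp, 59 with gene starts of any kind and 84 in the strongest 421.

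With 1000 bp the intron share gave 0.820 (passed, adjusted exact p = 0.0489) and inner transcript starts 1.02. With 3000 bp the intron share gave 1.00, Sp1 2.20, the core distal against proximal 0.986, convergent gaps 0.444 and replicate support of intronic against intergenic peaks 0.622. With 5000 bp the intron share gave 1.17, the intergenic share 1.04, the exon share 0.464, Sp1 2.15, the core in intronic against intergenic peaks 1.72, the core distal against proximal 0.446, GAGAGA distal against proximal 0.965, ncRNA starts in introns 0.852, convergent gaps 0.346, ncRNA starts distal against proximal 0.744 and the replicate support 0.737. With transcript starts Sp1 gave 1.78 and the core beyond against within 5000 bp 0.369. With gene starts of any kind the intron share gave 1.01, Sp1 2.58, GATA 1.64 (passed), the core 0.936 and GAGAGA 0.948 distal against proximal, X 0.881, the core by distance 0.400 and convergent gaps 0.282. In the strongest 421 peaks signal distal against proximal gave 0.978, the core by distance 0.379 and the replicate support 0.569. Against the weaker part of the background GATA gave 1.40 (passed).

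A window of 100 bp gave 1.14 for GAGAGA in intronic against intergenic peaks, and one of 150 bp gave 1.18, with GAGAGA distal against proximal at 1.47 (passed, adjusted exact p = 0.0392). The core of 7 letters, AGTGAAA, gave 0.519 by distance. Strata of G+C content gave 1.04 for Sp1, 1.55 for GATA (passed), 0.932 for the E-box and 1.51 for ncRNA starts in introns. Reciprocal overlap gave 0.674 for the replicate support, 421 top regions gave 0.787 for it and 0.878 for distal against proximal, and strata of intron length gave 1.18 for first introns. With the strongest 843 regions of either replicate alone, distal against proximal ran from 0.942 to 0.947 for the core, from 0.977 to 1.34 for GAGAGA and from 0.898 to 0.948 for signal. The share on X against the distal background ran from 0.836 to 1.215, and the core beyond against within 5000 bp from 0.507 to 0.527. The alternatives for ncRNA distances, inner transcripts, intron length, 1 summit a host gene, G+C strata of ncRNA starts, peaks in both replicates and the added tests were chosen after seeing the data. No paired analysis was possible because the series has a single group.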

Other observations

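The bases beside the core were counted at the 48 core sites of distal peaks, read in the direction AAGTGAAA. The base just 5′ of the core was A at 38 sites, 79.17%, against 61.33% of 225 sites in the distal background and 75.9% of 83 sites at proximal peaks. The base just 3′ of it was A or G at 18 sites each, 37.5% apiece, while in the background A stood at 51.11% and G at 16.44%. These shares were seen first and were not tested.

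Genes of microRNAs had a start within 200 bp of 4 distal summits, and other small RNA genes were also present. The summit at IV 14034032 lay 24 bp from mir-52 (signal 95.9, ranks 209 and 229 in replicates 1 and 2), and the one at II 11881148 lay 109 bp from mir-45 (77.54, ranks 439 and 227). The summit 158 bp from mir-244 ranked 191 in replicate 1 and 16345 in replicate 2, and the one 174 bp from mir-82, in an intron of gid-2, ranked 4400 and 1070. None of the 4 had the core, and 3 had GAGAGA. In the distal background 20 of 12370 regions lay as near to a microRNA gene start. A tRNA gene start lay within 200 bp of 5 distal peaks and of 89 background regions.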
